A study of Mus musculus with 12 samples.

Results

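The genes described here are 8 genes of epidermal cornification, Tgm1, Tgm3, Calml3, Lor, Ivl, Sprr1a, Sprr1b and Sprr2a, measured in mouse mammary tumours driven by different forms of the ErbB2 receptor. They were found by gene name or accession among 41174 array probes, and each had exactly 1 probe. All 8 passed the filter on dim probes and were among the 28691 genes tested. The samples were 12 pools of tumour RNA, 2 for each of 6 strains, and each pool combined equal amounts of RNA from 5 tumours of female mice that had carried tumours for 6 weeks. All 6 strains carry an activated neu (rat ErbB2) transgene under the MMTV promoter, which drives transgenes mainly in mammary epithelium. NDL25 is the parental NDL2-5 strain. As background, tyrosines of the receptor tail that become phosphorylated are missing from the NYPD receptor, and YB, YC, YD and YE each have 1 of those sites restored on the NYPD receptor. The receptor background is therefore shared by NYPD and these 4 strains, and no normal mammary gland was compared. Every value below is a log2 ratio of the tumour pool over Universal Mouse Reference RNA, pooled from mouse cell lines and sold as a standard, averaged over 2 arrays with exchanged dyes. A value of 0 means equal signal in the tumour pool and in that mixture, not absence of the transcript.

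Cornification is the last step of keratinocyte differentiation, in which a protein shell is built beneath the plasma membrane of a dying cell. Precursor proteins such as involucrin (Ivl), loricrin (Lor) and the small proline-rich proteins (Sprr genes) are joined to one another by transglutaminases, among them Tgm1, which is anchored to the membrane, and Tgm3, which is cytosolic and activated by proteolysis. Calml3 encodes a calmodulin-like calcium sensor of epithelial cells. The programme belongs to stratified epithelia such as epidermis, hair follicle, oral cavity and oesophagus, and the luminal cells of the mammary gland do not normally run it.

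The probes gave usable signal on every array. For all 8 genes the probe was well above background in the tumour channel and in the reference channel on 24 of 24 arrays, and none was saturated. The brightness differed between probes, which limits how far small ratios can be read. The Ivl probe was the dimmest on these slides, at 73.1 to 189 intensity units over local background in the tumour channel (median 106), while the Sprr1a probe ran from 508 to 16000 (median 853). These intensities show how close each probe lies to background and are not a ranking of the genes. The 2 arrays of a pool differed by a median log2 of 0.04 to 0.14 for 7 of the genes and by 0.32 for Sprr1a.

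Median tumour signal over the 24 arrays was 364.8 to 763.5 intensity units against a local background of 39 to 64, and 97.28% to 98.85% of probes were well above background. The mean log2 ratio of 9 luminal mammary markers was 2.27 to 2.82 in all 12 pools. The tumour dye of each array was read from luminal and milk genes, so the positive sign was largely set in advance. It cannot check the labelled tissue. NYPD pool 2 stood apart from NYPD pool 1 and from the other strains in skin and hair genes. Its mean over 16 hair follicle and sebaceous markers was 2.07, against 0.03 in NYPD pool 1 and -0.01 to 0.18 in the 10 other pools. The main differences that involve NYPD are therefore also given without that pool. The scanner files fall into 3 Feature Extraction sessions, split where extraction times lay more than 6 hours apart. YD and YE were in the first, NDL25 and YB in the second, YC divided between both, and NYPD alone in the third. Session and strain therefore cannot be told apart for any comparison with NYPD.

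The upstream sequences of 6 genes are shown because these genes fell into both of the patterns described below: Tgm3, Sprr2a and Lor were highest in the YB pools, and Sprr1a, Sprr1b and Ivl in NYPD pool 2. The sequences come from RefSeq on the GRCm38.p6 build, not from the array files, which name no build. The table held 7 of the 8 genes, all but Calml3. Tgm1, also highest in NYPD pool 2, has 2 windows there, which are not shown and hold none of the motifs searched. Each line gives the 250 bases before the annotated start, 5′ to 3′, on the strand of the gene. Capitals mark TGANTCA, which takes in the binding motif of AP-1 factors (C or G at N) but is looser, and TATAAA, the TATA box.
Tgm3, chr2:130012090-130012339, plus strand: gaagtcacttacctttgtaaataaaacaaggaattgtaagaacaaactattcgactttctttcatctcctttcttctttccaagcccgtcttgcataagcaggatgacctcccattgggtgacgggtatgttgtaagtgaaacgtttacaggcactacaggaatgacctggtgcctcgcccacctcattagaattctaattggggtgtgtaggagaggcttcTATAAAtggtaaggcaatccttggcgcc
Sprr2a1, chr3:92215585-92215834, plus strand: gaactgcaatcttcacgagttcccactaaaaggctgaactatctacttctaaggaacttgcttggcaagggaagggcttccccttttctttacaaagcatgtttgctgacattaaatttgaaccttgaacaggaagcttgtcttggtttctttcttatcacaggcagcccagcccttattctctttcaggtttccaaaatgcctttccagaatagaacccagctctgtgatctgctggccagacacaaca
Lor, chr3:92083143-92083392, minus strand: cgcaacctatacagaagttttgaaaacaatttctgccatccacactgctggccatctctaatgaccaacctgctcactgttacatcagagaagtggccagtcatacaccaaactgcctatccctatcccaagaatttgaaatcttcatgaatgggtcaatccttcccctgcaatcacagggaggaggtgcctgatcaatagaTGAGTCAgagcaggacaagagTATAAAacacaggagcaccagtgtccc
Sprr1a, chr3:92485882-92486131, minus strand: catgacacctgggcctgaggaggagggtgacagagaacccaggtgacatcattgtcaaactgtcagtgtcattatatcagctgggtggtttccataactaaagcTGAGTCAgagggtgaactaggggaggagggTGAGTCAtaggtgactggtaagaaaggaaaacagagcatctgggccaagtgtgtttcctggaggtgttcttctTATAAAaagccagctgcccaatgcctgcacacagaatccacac
Sprr1b, chr3:92438780-92439029, minus strand: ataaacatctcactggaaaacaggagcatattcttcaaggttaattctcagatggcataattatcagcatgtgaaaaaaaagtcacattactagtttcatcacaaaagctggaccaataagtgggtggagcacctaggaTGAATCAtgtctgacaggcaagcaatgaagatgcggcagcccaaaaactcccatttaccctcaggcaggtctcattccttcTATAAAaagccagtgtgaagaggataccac
Ivl, chr3:92573736-92573985, minus strand: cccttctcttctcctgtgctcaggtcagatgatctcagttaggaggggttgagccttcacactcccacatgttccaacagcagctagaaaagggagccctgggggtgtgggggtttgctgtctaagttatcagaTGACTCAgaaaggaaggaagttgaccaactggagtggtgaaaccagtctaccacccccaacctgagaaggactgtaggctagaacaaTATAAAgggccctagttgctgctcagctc

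TGANTCA was found, on either strand, in 4 of these 6 windows, those of Lor, Sprr1a, Sprr1b and Ivl, with 2 matches in Sprr1a. It lies in 6.75% of 32851 RefSeq windows of this length. The Tgm3 and Sprr2a1 windows hold no such letters, which says nothing of the factors themselves. The Sprr1b match is TGAATCA, with A at the open place, while the matches in Lor, Sprr1a and Ivl have C or G there. TATAAA was found in 5 of the 6, all but Sprr2a1, and lies in 12.4% of all windows. AACNGGTT, the motif of grainyhead-like factors, was in 0 of the 6 and lies in 1.79% of all windows. No matches overlapped. A match is a description of the letters and does not show binding. The window of Sprr2a2 is identical to that of Sprr2a1 and the Sprr2a3 window shares a run of 222 bases with it. The Sprr2a probe carries an accession that is now named Sprr2a1, and whether it also reads the other copies was not tested, so its values may sum over them.

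Of the 8 genes, 3 passed the F test over the 6 strains in limma with Benjamini-Hochberg adjustment at 0.05, namely Tgm3 (adjusted p = 0.000602), Calml3 (adjusted p = 0.0296) and Sprr2a (adjusted p = 0.0338). Over all genes tested 3.18% passed. Lor (adjusted p = 0.105), Tgm1 (0.156), Sprr1a (0.503), Ivl (0.536) and Sprr1b (0.621) did not. With 1 pool left out at a time, where the lone pool of its strain is assumed to vary like the others, the number passing ran from 1 to 6, while the share of all genes passing ran from 0.565% to 4.59%. The 6 came without NYPD pool 1, where 2.9% of all genes passed. Tgm3 passed in 12 of 12 such fits, Sprr2a in 2 (without either NYPD pool) and Calml3 in 2 (without either YB pool). Fewer cells of a type and less RNA per cell cannot be told apart in these bulk pools.

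**Figure D1:**
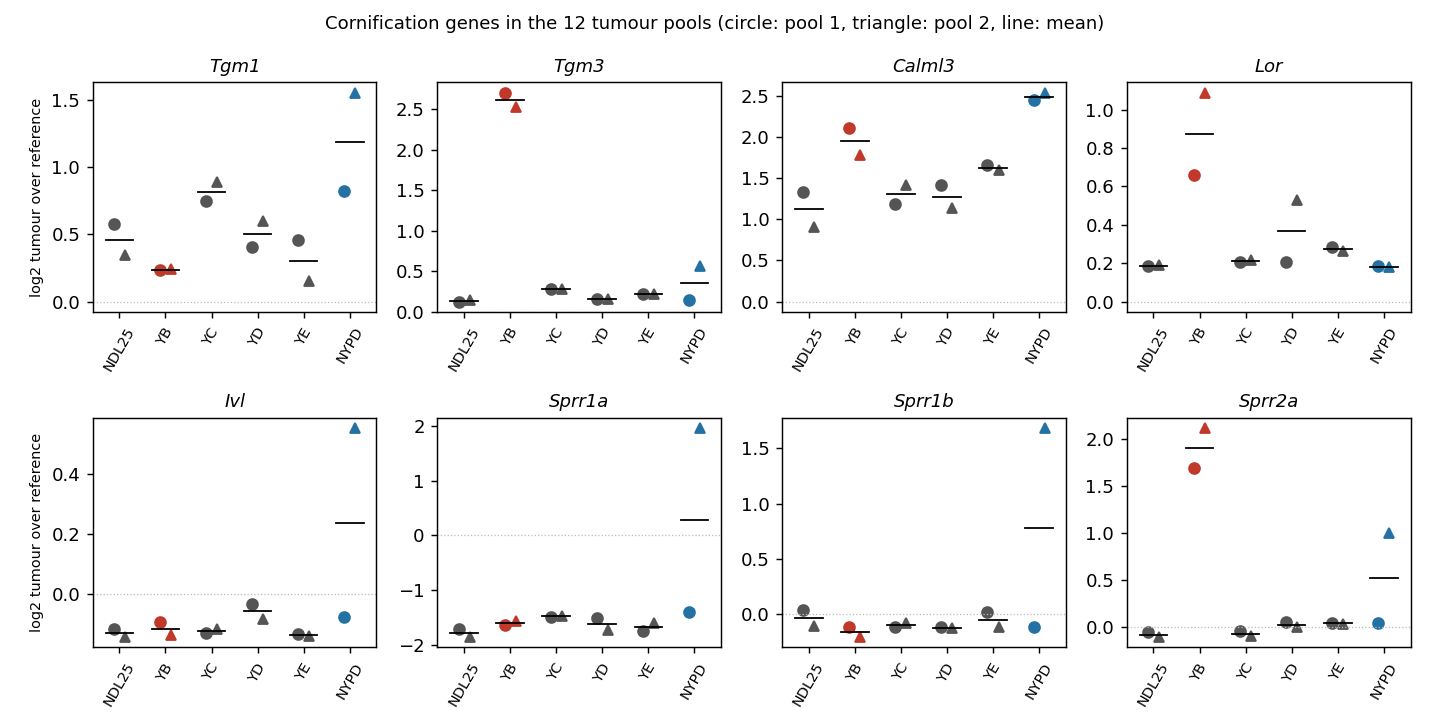
Log2 ratio of tumour over reference (y axis, scale differs between panels) for the 8 genes in 6 strains, with pool 1 as circles, pool 2 as triangles and the strain mean as a line. Red marks YB and blue NYPD. Both YB pools lie above all others for Tgm3, Sprr2a and Lor, while only the second NYPD pool is high for Sprr1a, Sprr1b and Ivl.

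Among the crosslinking enzymes, Tgm3 was high in YB tumours and low elsewhere. Its log2 ratio was 2.71 and 2.54 in the YB pools. In the other strains it was 0.13 and 0.15 in NDL25, 0.28 and 0.28 in YC, 0.15 and 0.16 in YD, 0.22 and 0.22 in YE, and 0.14 and 0.57 in NYPD. The YB values did not overlap with any other pool, and NYPD pool 2 was the highest of the rest. Tgm3 was 5.59-fold higher in YB than in NDL25 (log2 difference 2.48, SE 0.12, n = 2 pools each, limma adjusted p = 0.00011). Against YC, YD, YE and NYPD it was higher in YB by 2.34, 2.47, 2.40 and 2.27, with limma adjusted p of 0.000152, 0.000125, 0.000142 and 0.000182. The other 5 strains followed in the order NYPD, YC, YE, YD, NDL25, and no neighbours in that order passed (adjusted p from 0.876 to 1). The largest gap between the arrays of a pool was in YB pool 2, at 2.13 and 2.94, both above every array of the other strains.

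Tgm1, the membrane transglutaminase of the epidermis, had another pattern. It was 0.83 and 1.56 in NYPD, 0.75 and 0.89 in YC, 0.40 and 0.60 in YD, 0.58 and 0.34 in NDL25, 0.46 and 0.15 in YE, and 0.23 and 0.25 in YB. The YB pools lay at the lower end and NYPD pool 2 at the top, and the ranges of most strains overlapped. Tgm1 was 0.73 higher in NYPD than in NDL25 (SE 0.22, 95% interval 0.21 to 1.24, limma adjusted p = 0.169) and 0.22 lower in YB than in NDL25 (log2 difference -0.22, interval -0.74 to 0.29, adjusted p = 0.7). Neither passed. The difference of YB and NYPD, -0.95 (SE 0.22), had an adjusted p of 0.0536. It was -0.59 without NYPD pool 2 (adjusted p = 0.123) and -1.32 without NYPD pool 1 (0.0123). No test compared Tgm1 with Tgm3.

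Calml3 was above the reference in every pool. It was 2.45 and 2.54 in NYPD, 2.11 and 1.78 in YB, 1.66 and 1.60 in YE, 1.19 and 1.42 in YC, 1.42 and 1.13 in YD, and 1.34 and 0.91 in NDL25. Both NYPD pools lay above all 10 others, and both YB pools above all pools of the remaining 4 strains. In the authors' deposited ratios the place of YB did not hold. There YB pool 2 (2.28) lay below NDL25 pool 1 (2.45), YD pool 1 (2.54), and both pools of YC (2.38 and 2.44) and YE (2.43 and 2.40). YB pool 1 (2.73) lay above all of these. The difference of YB and NDL25 with those ratios was 0.51 (SE 0.31, limma adjusted p = 0.482). Calml3 was 2.58-fold higher in NYPD than in NDL25 (log2 difference 1.37, SE 0.17, limma adjusted p = 0.0256) and 1.77-fold higher in YB than in NDL25 (0.83, SE 0.17, adjusted p = 0.0436). Neighbours in the order NYPD, YB, YE, YC, YD, NDL25 did not pass against each other (adjusted p from 0.129 to 1). The NYPD pools differed by 0.09 for Calml3, and by 0.42 to 3.36 for the 6 genes other than Calml3 and Lor. Without NYPD pool 2 its difference between NYPD and NDL25 was 1.32 (adjusted p = 0.0657), and without NDL25 pool 1 or pool 2 it was 1.58 and 1.16 (adjusted p = 0.101 and 0.0911).

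Among the envelope precursors, Sprr2a shared the Tgm3 pattern. It was 1.69 and 2.12 in YB, 0.04 and 1.004 in NYPD, 0.05 and -0.0036 in YD, 0.04 and 0.04 in YE, -0.04 and -0.10 in YC, and -0.05 and -0.10 in NDL25. Both YB pools were above all others, and NYPD pool 2 lay between YB and the rest. The probe signal over local background had a median of 1110 intensity units in YB against 155 in NDL25. Sprr2a was 3.95-fold higher in YB than in NDL25 (log2 difference 1.98, SE 0.27, limma adjusted p = 0.0113). It was higher in YB than in YC by 1.97 (adjusted p = 0.0118), than in YD by 1.88 (0.0142), than in YE by 1.87 (0.0152) and than in NYPD by 1.38 (0.0308). Leaving out the second NYPD pool gave a difference of YB and NYPD of 1.86, leaving out the first gave 0.90, and it passed in both fits. Below YB no neighbours in the order NYPD, YE, YD, YC, NDL25 passed (adjusted p from 0.367 to 1).

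Lor, the most abundant protein of the epidermal envelope, was higher in YB by a smaller amount. It was 0.66 and 1.09 in YB, 0.21 and 0.53 in YD, 0.29 and 0.26 in YE, 0.20 and 0.22 in YC, 0.19 and 0.19 in NDL25, and 0.18 and 0.18 in NYPD. The YB pools were above all others, and YD pool 2 came closest. Lor was 1.61-fold higher in YB than in NDL25 (log2 difference 0.69, SE 0.14, limma adjusted p = 0.0422). It passed against NYPD (0.69, adjusted p = 0.0359) and YC (0.66, 0.0465) and not against YD (0.51, 0.109) or YE (0.60, 0.0654). The NYPD pools differed by 0.0054 for Lor, and by 0.63 to 3.36 for the other 4 precursors.

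Sprr1a, a small proline-rich protein induced in stressed and wounded epithelia, was below the reference in 11 of the 12 pools. It was -1.40 and 1.96 in NYPD, -1.49 and -1.47 in YC, -1.64 and -1.57 in YB, -1.503 and -1.72 in YD, -1.75 and -1.59 in YE, and -1.71 and -1.86 in NDL25. NYPD pool 2 alone was above 0, and both of its arrays were (1.61 and 2.32). The mean was 2.06 higher in NYPD than in NDL25 with an SE of 0.86 (95% interval 0.07 to 4.05, limma adjusted p = 0.302).

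Sprr1b, its close relative, was -0.12 and 1.68 in NYPD and between -0.21 and 0.03 in the 10 pools of the other strains. Both arrays of NYPD pool 2 were high (1.499 and 1.87). The difference of NYPD and NDL25 was 0.82 (SE 0.46, 95% interval -0.26 to 1.89, adjusted p = 0.446). Ivl, the scaffold on which the envelope is assembled, was -0.08 and 0.55 in NYPD and between -0.14 and -0.03 in the 10 other pools. Its NYPD pool 2 arrays read 0.52 and 0.59, with a difference of NYPD and NDL25 of 0.37 (SE 0.17, 95% interval -0.02 to 0.76, adjusted p = 0.341). In YB all 3 of these precursors lay close to NDL25, with differences of 0.18 for Sprr1a (interval -1.81 to 2.17), -0.13 for Sprr1b (-1.20 to 0.95) and 0.01 for Ivl (-0.37 to 0.40). These intervals are wide for the Sprr1 genes, since the model takes the spread between the NYPD pools into the error of every contrast.

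In YB against NDL25, 4 of the 8 genes rose and none fell in limma at an adjusted p under 0.05, namely Tgm3, Sprr2a, Calml3 and Lor. Over all genes 3.91% passed in this comparison, and 3.12% passed with the higher level in YB. The median difference of the 8 genes was 0.43, against -0.01 over all genes. Tgm1, Ivl, Sprr1a and Sprr1b did not pass, at -0.22, 0.01, 0.18 and -0.13. The Tgm3 call held in 12 of 12 fits that left out 1 pool, and within the second session alone (2.48, adjusted p = 0.0415). The Sprr2a call was lost without NDL25 pool 1 or pool 2 (adjusted p = 0.0801 and 0.0782) and within the second session alone (adjusted p = 0.168). The Lor call was lost in 9 of the 12 fits that left out 1 pool (it held without YB pool 1, YD pool 1 or YD pool 2), with session as a block (adjusted p = 0.0792) and within the second session (0.285). The Calml3 call was lost in 11 of 12 (it held without YB pool 2), with session as a block (0.0701) and within the second session (0.286). The sizes with session as a block were those of the fit over all pools, 0.69 for Lor and 0.83 for Calml3.

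**Figure D2:**
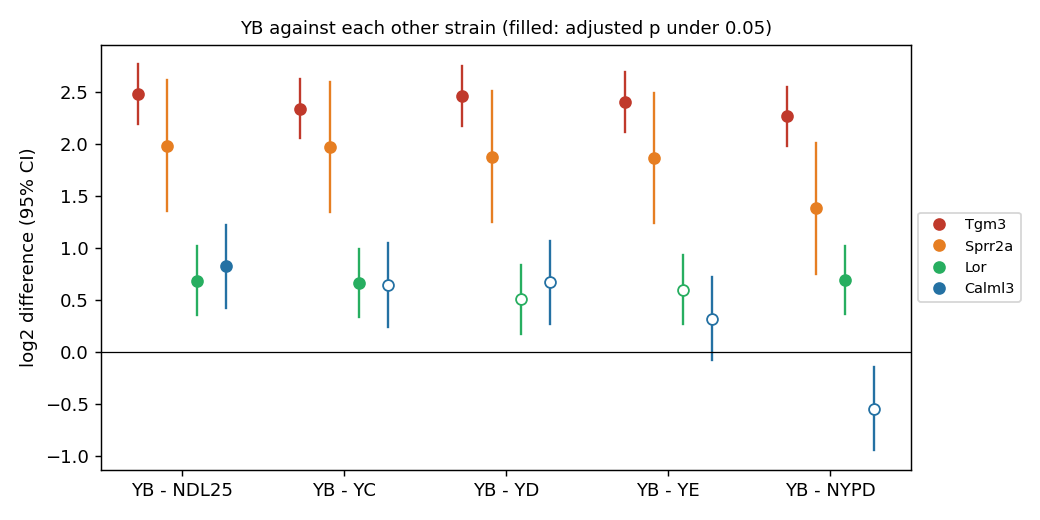
Log2 difference of YB and each other strain (y axis) for Tgm3, Sprr2a, Lor and Calml3, with points for the estimate, bars for its 95% interval and filled points for a limma adjusted p under 0.05. Tgm3 lies between 2.27 and 2.48 and Sprr2a between 1.38 and 1.98 in all 5 comparisons, and Calml3 lies below 0 against NYPD only.

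Tgm3 and Sprr2a were also higher in YB than in each of the other single-site strains and in NYPD. These comparisons share the YB pools and are not independent. In YB against YC 3 of the 8 genes rose (Tgm3, Sprr2a and Lor), where 4.11% of all genes passed, 3.47% with the higher level in YB. In YB against NYPD the same 3 rose, where 5.1% passed, 4.02% higher in YB. The median difference of the 8 genes was nonetheless -0.45 in YB against NYPD, against 0.0019 over all genes. That median was 0.33, 0.26 and 0.19 in YB against YC, YD and YE. In YB against YD and in YB against YE 2 rose, Tgm3 and Sprr2a, where 3.8% and 3.55% passed, 3.3% and 2.83% higher in YB. None of the 8 was called lower in YB in these 4 comparisons. The difference of YB and NYPD without NYPD pool 2 was 2.48 for Tgm3 (adjusted p = 8.18e-05) and 0.69 for Lor (adjusted p = 0.119). Without NYPD pool 1, Tgm1, Ivl, Sprr1a and Sprr1b were called lower in YB than in NYPD, at log2 differences of -1.32, -0.67, -3.57 and -1.85, where 3.06% of all genes passed.

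The YB arrays were extracted in another session than those of YD and YE. Only YC ties those sessions together, through 1 array of YC pool 2 in the first session. With session as a block Tgm3 was 2.48 higher in YB than in YD (SE 0.40, adjusted p = 0.618) and 2.42 higher than in YE (adjusted p = 0.524), and Sprr2a was 1.76 and 1.75 higher (SE 0.87, adjusted p = 0.92 and 0.762), so neither passed. Against YC, Tgm3 was 2.35 higher within the second session (adjusted p = 0.113), and Sprr2a was 1.94 higher with the block (adjusted p = 0.0829). In the fits that left out 1 pool, Tgm3 kept its call in all 12 in each of these 4 comparisons. Sprr2a lost it without either YC pool against YC, without either YE pool against YE, and without either YD pool or YB pool 2 against YD. Against NYPD it lost it in 9 of 12 fits (it held without YB pool 1 or either NYPD pool). Lor lost its call in 11 of 12 fits against YC (it held without YB pool 1) and in 9 of 12 against NYPD (it held without YB pool 1 or either YD pool).

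In NYPD against NDL25, 1 of the 8 genes rose, Calml3, and none fell. Over all genes 1.04% passed, 0.453% higher in NYPD. The median difference of the 8 genes was 0.67, against -0.01 over all genes, and 3 of the 8 had an unadjusted p under 0.05. For most of the genes the value depended on which NYPD pool was in the fit. Without NYPD pool 2 the difference was 0.36 for Tgm1, 0.38 for Sprr1a, -0.08 for Sprr1b, 0.05 for Ivl and 0.12 for Sprr2a. Without NYPD pool 1 it was 1.09, 3.74, 1.72, 0.68 and 1.08 for the same genes, and each of these 5 then passed (adjusted p = 0.0293, 3.47e-05, 0.000268, 0.00265 and 0.0255), again with the lone pool assumed to vary like the others. Over all genes 1.62% passed in that fit, 1.16% higher in NYPD. Tgm3 was 0.0049 without NYPD pool 2 and 0.43 without NYPD pool 1 (adjusted p = 0.0552), and did not pass in either fit.

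The other 9 comparisons called 0 of the 8 genes in limma. In YC and YD against NDL25 no member had an unadjusted p under 0.05, and 0.00697% of all genes passed in each. In YE against NDL25 1 member did, Calml3, at 0.51 (adjusted p = 0.543), and 0% of all genes passed. Against NYPD, YC had 1, YD had 2 and YE had 2 members with an unadjusted p under 0.05, where 0.0174%, 0.0105% and 1.88% of all genes passed. Among YC, YD and YE none of the 8 had an unadjusted p under 0.05 in any of the 3 comparisons, where 0.00697%, 0.00349% and 0.0174% of all genes passed for YC against YD, YC against YE and YD against YE. The intervals for Tgm3 in these comparisons ran from -0.16 to 0.41, -0.23 to 0.35 and -0.35 to 0.22, while the lowest bound of its 5 YB intervals was 1.98.

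Both YB pools lay above all 10 other pools for 3 of the 8 genes, Tgm3, Sprr2a and Lor, and did so for 9.45% of all genes. Both NYPD pools lay above all 10 others for Calml3 and Sprr1a, and did so for 4.22% of all genes. For Sprr1a that count holds by a small margin, since NYPD pool 1 was at -1.40 and the highest pool of another strain at -1.47. NYPD pool 2 was the highest of the 12 pools for Tgm1, Calml3, Ivl, Sprr1a and Sprr1b, and was so for 10.2% of all genes.

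The NYPD pools differed from each other more than the pools of any other strain in 6 of the 8 genes, all but Lor and Calml3. NYPD pool 2 was at least 0.5 above NYPD pool 1 in 5 of the 8: Sprr1a by 3.36, Sprr1b by 1.80, Sprr2a by 0.96, Tgm1 by 0.73 and Ivl by 0.63. Over all genes 4.16% showed such a gap. In each of the other 5 strains 0 of the 8 genes was higher in pool 2 by 0.5 or more, where the share of all genes was 2.4% for NDL25, 2.41% for YE, 3.24% for YD, 3.71% for YC and 4.88% for YB. Tgm3 was 0.42 higher in NYPD pool 2. Both pools of NYPD belong to 1 session, so the gap lies within a session. With 1 pool on each side it has no test.

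Genes of skin appendages moved with this pool. Of 16 hair follicle and sebaceous markers, 12 were at least 0.5 higher in NYPD pool 2 than in pool 1, with a median of 2.36. In the other 5 strains the mean of this list stayed between -0.01 and 0.18. Of 10 skeletal muscle markers 9 were also at least 0.5 higher, with list means of -0.53 and 0.71 in the NYPD pools, and that list also differed between the YC pools (-0.40 and 0.86), where the 8 genes differed by at most 0.24. No luminal marker of 9 was higher by 0.5. Of 10 milk genes 5 were higher by 0.5 and 2 were lower by 0.5, with list means of 2.51 and 3.21 in the NYPD pools. Of 9 fibroblast markers 4 were lower by 0.5, and none was higher. The share of all genes higher by 0.5 in NYPD pool 2 was 4.16%. The part of skin, hair or other tissue in the values of Sprr1a, Sprr1b, Sprr2a, Tgm1 and Ivl in this pool was not tested.

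Other genes of the cornified envelope followed the same pool. Of 29 measured envelope precursors other than the 8 genes, 16 were at least 0.5 higher in NYPD pool 2. The list mean, members included, was 0.88 in that pool and -0.03 to 0.15 in the 11 others. Of 14 further crosslinking and processing enzymes 8 were higher by 0.5, of 12 suprabasal and stress keratins 6, and of 14 barrier lipid genes 1. None of these lists had a gene lower by 0.5. Among all genes 4.16% were higher by 0.5 in NYPD pool 2. Not all late genes took part: Flg, the precursor of filaggrin, was 0.05 and 0.25 in the NYPD pools, and Casp14, the protease that processes it, -0.07 and 0.10.

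**Figure D3:**
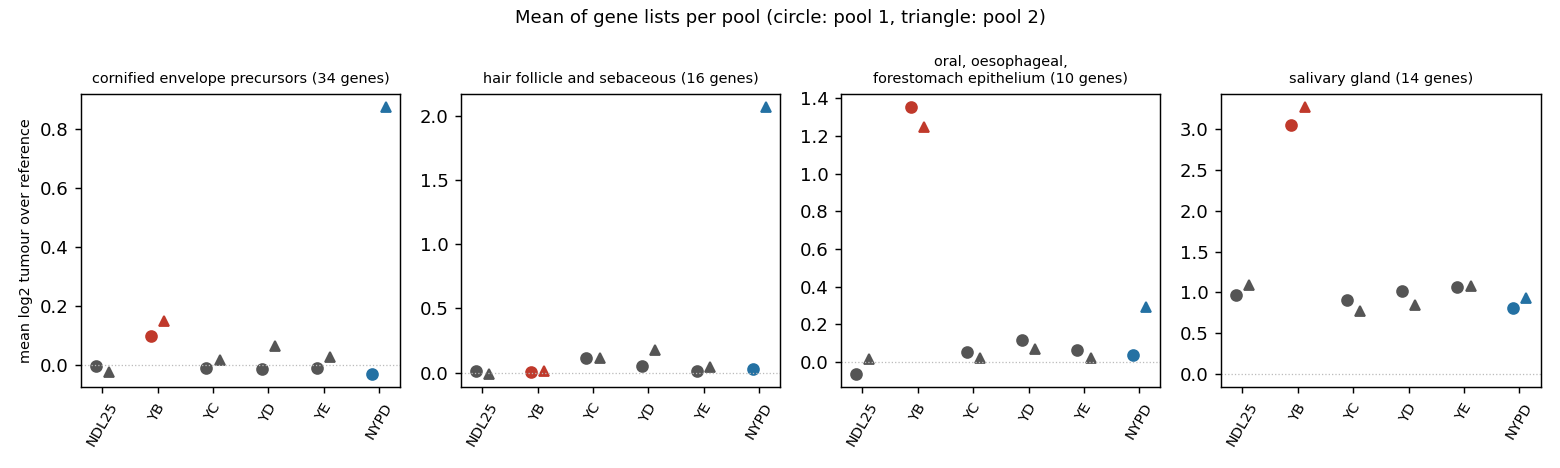
Mean log2 ratio of tumour over reference (y axis, scale differs between panels) over 4 gene lists in each pool, with pool 1 as circles and pool 2 as triangles, red for YB and blue for NYPD. Envelope precursors (0.88) and hair follicle markers (2.07) are high in NYPD pool 2 alone, and the oral and salivary lists are high in both YB pools.

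In YB few other genes of the programme passed the test beside Tgm3, Sprr2a, Calml3 and Lor. Of the 29 other envelope precursors 0 passed in limma in YB against NDL25, with a median difference of 0.01. The other counts were 0 of 14 other enzymes, 0 of 14 barrier lipid genes, 0 of 12 suprabasal keratins and 0 of 20 regulators of the programme. Of 11 basal keratinocyte genes 1 rose, Trp63, and of 13 keratinocyte desmosome genes 1 fell, Perp. Over all genes 3.91% passed. In NYPD against NDL25 the precursor, enzyme, lipid, keratin and desmosome lists had 0 calls among these genes, 2 of the 11 basal genes rose (Krt15 and Trp63) and 1 of the 20 regulators rose (Prdm1), where 1.04% of all genes passed.

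Trp63 encodes p63, the transcription factor that maintains basal cells of stratified epithelia. It was 1.59 and 1.44 in NYPD, 0.43 and 1.04 in YB, 0.58 and 0.37 in YD, 0.15 and 0.15 in YC, -0.14 and -0.03 in NDL25, and -0.04 and -0.07 in YE. Both NYPD pools were above all others. Its brightest probe rose by 1.60 in NYPD (SE 0.18, limma adjusted p = 0.0215) and by 0.82 in YB (adjusted p = 0.0484) over NDL25, while a second Trp63 probe differed by 0.02 in YB. The NYPD rise was read from the brightest probe only. Krt15, a keratin of basal cells and hair follicle stem cells, was 0.49 and 0.43 in NYPD and below 0 in the 10 other pools, and rose by 1.22 over NDL25 (adjusted p = 0.0111). Prdm1 encodes Blimp1, a transcriptional repressor present in the granular layer and sebaceous gland. Prdm1 was -0.39 and -0.37 in NYPD and -1.42 to -0.97 elsewhere, and rose by 0.80 (adjusted p = 0.0303). Without NYPD pool 2 the rises over NDL25 were 1.68 for Trp63 (adjusted p = 0.0415), 1.25 for Krt15 (0.028) and 0.79 for Prdm1 (0.0796), so that Prdm1 no longer passed. NYPD pool 2 minus pool 1 was -0.16 for Trp63, -0.07 for Krt15 and 0.02 for Prdm1, against 0.09 for Calml3 and 3.36 for Sprr1a.

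Cebpb, a factor of the early suprabasal layers, and Perp, a desmosomal protein regulated by p63, passed the F test over strains (adjusted p = 0.03 and 0.0482). Cebpb was lowest in YE, at 1.24 and 1.01, and was 1.38 and 1.41 in YB and 1.79 and 1.67 in NDL25. Its difference of YB and NDL25 did not pass (-0.33, adjusted p = 0.07). Perp was 1.70 and 1.82 in YC, 2.01 and 1.95 in YB, and 1.75 and 2.13 in NYPD. It was 1.99 and 2.03 in YD, 2.21 and 2.54 in YE, and 2.69 and 2.72 in NDL25. Every pool of the other strains thus lay below both NDL25 pools. Perp was 0.73 lower on the log2 scale in YB than in NDL25 (limma adjusted p = 0.0321), and 0.77 lower in NYPD (adjusted p = 0.0534). The YC pools lay below the YB pools.

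Tgm3 is also a gene of the oral cavity, oesophagus and forestomach, and markers of oral and salivary tissue were measured beside the YB result. Of 10 genes of oral, oesophageal and forestomach epithelium 5 rose in YB against NDL25, Tgm3 among them. The list mean was 1.25 to 1.35 in the YB pools and -0.06 to 0.29 in the others. The other 4 were Pax9 (3.997), Pitx1 (3.13), Mal (2.79) and Dmbt1 (0.49), of which Pax9 and Pitx1 encode patterning factors of the mouth and pharynx. Krt4, Krt76, Rhcg and Sprr3, which mark the differentiated layers of mucosal epithelium, were -0.13, -0.03, -0.0087 and -0.07 in YB minus NDL25 and did not pass. The remaining gene of the 10, another marker of such layers, did not pass either, but its difference lay above that of Dmbt1. The median difference over the 10 genes was 0.54. Of 14 salivary gland genes 7 rose, with list means of 3.05 to 3.27 in YB and 0.77 to 1.10 in the other pools. The share of all genes passing in YB against NDL25 was 3.91%, and 3.12% passed with the higher level in YB. The hair follicle list, in contrast, had means of 0.01 and 0.02 in YB. The part of oral or salivary tissue in the values of Tgm3, Sprr2a and Lor was not tested.

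Lor, Sprr2a, Sprr1b, Sprr1a and Ivl lie in this order within the epidermal differentiation complex on chromosome 3 in the RefSeq annotation, in a run of 25 annotated genes from Lor to Ivl. Of these, 17 were measured, 12 of them beyond the 5. In YB against NDL25 the calls in the run were the 2 already given, Lor and Sprr2a, and 0 of the 12 other genes passed. The share of all genes passing there was 3.91%. Sprr2k, a neighbour of Sprr1b, was 0.82 and 1.96 in the YB pools and 0.17 to 0.39 in the pools of NDL25, YC, YD and YE, with a difference of 1.18 over NDL25 (SE 0.30, limma adjusted p = 0.0816). In NYPD pool 2, 8 of the 17 were at least 0.5 above pool 1, where 4.16% of all genes were. These were the 4 members Sprr2a, Sprr1b, Sprr1a and Ivl, and Prr9 (by 5.98), Sprr2h (2.87), Sprr2d (0.84) and Sprr4 (0.79). Genes with little difference lay between those with large ones in both comparisons. Sprr genes are close in sequence, and cross-hybridisation between their probes was not tested.

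**Figure D4:**
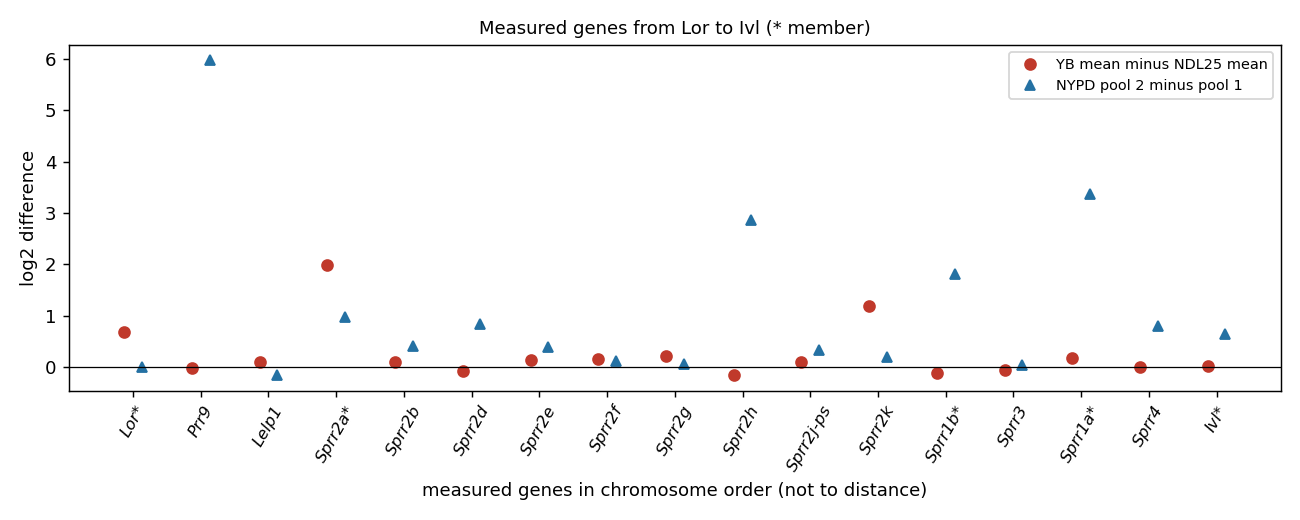
The 17 measured genes from Lor to Ivl in chromosome order (x axis, even spacing, members marked with a star), with the log2 difference of YB and NDL25 means as red circles and of NYPD pool 2 and pool 1 as blue triangles. Sprr2a (1.98), Sprr2k (1.18) and Lor (0.69) have the highest YB values, and Prr9 (5.98), Sprr1a (3.36) and Sprr2h (2.87) the highest NYPD pool differences.

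The genes whose values over the 12 pools were closest to those of Tgm3, Sprr2a and Calml3 were sought among 904 genes. These had an SD of at least 0.5 over the pools and an ordinary symbol, so Riken, LOC and accession names were left out. Closeness was the root mean square of the difference between centred log2 ratios. For Tgm3 the closest genes were Gpr83 (0.23), Galnt6 (0.23) and Olfr745 (0.24). For Sprr2a they were Adamtsl4 (0.23), Gpr83 (0.24) and Man1a (0.25), so that Gpr83 was near both. For Calml3 they were Zfp618 (0.27), Rerg (0.30) and Epb41l3 (0.31). None is a gene of the cornification lists. Gpr83, which encodes a G protein-coupled receptor, averaged -0.25 in YB and lay between -2.58 and -1.99 in the pools of the other strains.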

How the data were processed

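The 12 pools were measured on 24 two-colour Agilent arrays. Spot intensity and local background were deposited as Feature Extraction output (version 7.5.1, per the file headers), with processed intensity beside them. A log10 ratio of the dyes, also deposited per the file headers, was not used. The authors also deposited 1 log ratio per pool and probe. For these, RMA, limma and R (version 2.3.0) are named in the submitters' processing notes. The log base of these deposited values is unstated, and reading them as log2 is an assumption. A genome build is unstated too.

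Mean intensity was corrected by normexp with an offset of 50, which pulls ratios of dim probes towards 0, and normalised by loess within each array (limma 3.58.1, R 4.3.3, data.table version 1.17.8). Spots marked as outliers or non-uniform were left out. Since both dyes are listed for either channel in the labels, the tumour dye was read from luminal and milk probes. Lalba was higher in the tumour channel on 24 of 24 arrays and Csn2 on 23 of 23, but both belong to the milk genes used for this reading. Afp, which was not used for it, was lower on 24 of 24. Dye pairs correlated at -0.96 to -0.90 before turning, and pools correlated with the deposited ratios at 0.983 to 0.988. For each gene the brightest probe was kept, provided that its tumour signal was well above background on at least 4 arrays, which gave 28691 genes.

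A limma model with 6 strain means was fitted to the 12 pools (6 residual degrees of freedom and 1.76 from the prior), with an F test and 15 contrasts, each adjusted by Benjamini-Hochberg at 0.05. SE is the moderated standard error, and intervals are 95%. The pools are separate sets of tumours, but 2 per strain limit the precision. The model was tested on simulated data.

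Members, gene lists and tests were chosen with earlier results of these data known. Besides the 8 genes, the text names up to 4 genes per pathway list that passed the F test, the 3 genes most like each member that passed it with an SD of at least 0.5, and genes of the marker lists and of the Lor to Ivl run chosen after their values were seen. Alternatives covered background, normalization, filters, probes, single arrays, session, variance model, pool numbers and each pool left out.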

Additional observations from a re-analysis of the deposited data

How the results depend on the processing

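Tgm3 kept its call in YB against NDL25 in all fits run, and Lor and Calml3 each lost theirs there in 7 of 17 settings, beside the fits that left out a pool. The number of the 8 genes called moved by over 1.5 times in these settings, given with the share of all genes passing, and the cause was not tested. With the authors' deposited ratios it was 1 by the F test (3 before; 2.6% of all genes), 0 in NYPD against NDL25 (1 before; 0.609%), 2 in YB against NDL25 (4 before; 3.61%) and 1 in YB against NYPD (3 before; 3.31%). With the second arrays only it was 1, 0, 2 and 1 (2.34%, 0.488%, 1.91% and 2.42%). With session as a block it was 2 in YB against NDL25 (2.13%), 1 in YB against YC (3 before, 0.53%) and 0 in YB against YD and YE (2 before and 0.0209% in each). Fits of 2 strains alone, with few degrees of freedom, gave 1 in YB against NDL25 (0.0418%), 0 in NYPD against NDL25 (0%) and 0 in YB against NYPD, YC, YD and YE (0.0139%, 0.0139%, 0.0139% and 0.0174%). Within the second session, added after seeing the data, it was 1 in YB against NDL25 (0.0418%) and 0 in YB against YC (0.0105%). A trended robust prior gave 0 in NYPD against NDL25 (0.164%). First arrays only gave 1 in YC against NYPD (0 before, 0.323%), and median centring gave 1 in YE against NYPD (0 before, 2.14%).

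Smaller moves were also seen. In YB against NDL25 Lor lost its call with processed signals and with median centring, and Calml3 with every probe tested and with the trended prior, which left 3 of the 8 called in each. Processed signals gave 4 in YB against NYPD (4.73%), first arrays only gave 4 in YB against YC (7.01%), and median centring gave 3 in YB against YE (3.76%).

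With 1 pool left out at a time the counts ran from 1 to 6 by the F test, 0 to 6 in NYPD against NDL25, 1 to 3 in YB against NDL25, YC, YD and YE, 1 to 6 in YB against NYPD, 0 to 4 in YC against NYPD, and 0 to 5 in YD and YE against NYPD. The highest counts against NYPD came without NYPD pool 1. The shares of all genes ran from 0% to 2.05% in NYPD against NDL25, 0.516% to 4.27% in YB against NDL25 and 1.38% to 6.34% in YB against NYPD.

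Some differences changed sign. Lor in NYPD against NDL25 was 0.0103 with the deposited ratios and 0.0508 with first arrays only. Ivl in YB against NDL25 was -0.0356 with median centring and -0.0345 with first arrays only, and ran from -0.0073 to 0.0355 with 1 pool left out. Sprr1b in NYPD against NDL25 ran from -0.0847 to 1.72 with 1 pool left out, without NYPD pool 2 and pool 1 in turn. Over all genes, 1123 were called in YB against NDL25, and 518 with first arrays only, 544 with second arrays only, 610 with session as a block and 12 with the 2 strains alone.

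The labels do not say that pool numbers pair the samples, and the correlations of pool deviations were mixed: over 15 pairs of strains they ran from -0.17 to 0.71, and 7 exceeded 0.1. With the pool number as a replicate block 1 of the 8 genes was called in YE against NYPD (2.75% of all genes), against 0 without it (1.88%), and 480 genes in all were called in NYPD against NDL25, against 298. The offset in the background correction pulls ratios of dim probes towards 0. Ivl in NYPD pool 2 was 0.55, against 0.58 in the deposited ratios. Larger gaps lay elsewhere: Calml3 in NDL25 pool 1 was 1.34 against 2.45. In NYPD pool 2, Tgm1 was 1.56 against 2.54 and Sprr2a 1.004 against 1.70. Tgm3 in YB pool 1 went the other way, at 2.71 against 2.60. The part of the offset in these gaps was not tested.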
